A study of Homo sapiens with 8 samples.

Results

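Human embryonic stem cells that carry 1 S1344L allele of Dicer opposite a null allele (hemizygous S1344L) were set against Dicer-null cells of the same line. The groups share a null allele and differ by 1 S1344L allele, so the comparison asks which mature miRNAs a single mutant allele still yields. It takes 4 of the 8 small RNA libraries of the series, 2 hemizygous and 2 Dicer-null, and all 594 mature miRNAs of the deposited table. The other 4 libraries, 2 homozygous for S1344L and 2 wild type, serve as scales and share the estimate of the spread. All cells are H1, an established pluripotent line, edited with CRISPR-Cas9 in the mutant groups. The labels describe biologically independent RNA samples and do not say how many edited clones each group holds. No agent was applied in any group. The genotypes are those of the labels, since DICER1 itself was not measured in this assay.

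Dicer is the RNase III enzyme that cuts a hairpin precursor into a short duplex with a 5p strand from one side of the hairpin and a 3p strand from the other. Its RNase IIIb domain cuts the 5p side and its RNase IIIa domain cuts the 3p side. The serine altered in S1344L lies in the RNase IIIa domain and is a recurrent substitution site in tumours. One strand of the duplex, the guide, is kept in an Argonaute protein and pairs with target mRNAs mainly through its seed, and the other, the passenger, is usually degraded. In embryonic stem cells the miR-302 to miR-367 cluster, the miR-371-373 cluster and the large chromosome 19 cluster supply much of the miRNA pool, and several of their members share a seed.

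The hairpins and arms on which the results turn are shown first. Sequences are from RefSeq on GRCh38.p14, and 533 of the 594 miRNAs matched an entry there. The first set shows 4 whole hairpins with the 5p arm and then the 3p arm in capitals. They are the MIR302B hairpin at chr4:112648485-112648557 on the minus strand (in an exon of AC106864.1 and, on the other strand, an intron of LARP7), the MIR20A hairpin at chr13:91351065-91351135 on the plus strand (in an exon of the host gene MIR17HG), the MIR769 hairpin at chr19:46018932-46019049 on the plus strand (in an intron of CCDC61) and the MIR30E hairpin at chr1:40754355-40754446 on the plus strand (in an intron of NFYC). The first has its guide on the 3p side and the last on the 5p side. The 5p arm of MIR20A, a guide, was not called higher in hemizygous cells, whereas the 5p arms of MIR769 and MIR30E were.
MIR302B: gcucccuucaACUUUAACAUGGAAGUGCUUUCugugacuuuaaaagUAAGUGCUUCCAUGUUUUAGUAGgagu
MIR20A: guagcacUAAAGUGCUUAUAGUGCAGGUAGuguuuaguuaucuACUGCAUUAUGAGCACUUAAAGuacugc
MIR769: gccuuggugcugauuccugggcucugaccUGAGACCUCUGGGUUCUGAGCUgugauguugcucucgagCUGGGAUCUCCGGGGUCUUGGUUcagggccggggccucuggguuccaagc
MIR30E: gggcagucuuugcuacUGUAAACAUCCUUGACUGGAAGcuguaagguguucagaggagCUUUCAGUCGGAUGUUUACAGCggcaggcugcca

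The second set shows mature strands with the seed (bases 2 to 8) in capitals. The first 5 are 3p strands that share the seed AAGUGCU, the stem cell seed carried by the miR-302, miR-372 and chromosome 19 cluster miRNAs. The next 2 are 5p guides of the miR-17-92 cluster, whose seed AAAGUGC is the same run of letters offset by 1 base. The 3p strands of the same 2 hairpins and of miR-18a follow, then 3 further 3p strands with large rises, and last 4 5p strands that rose.
miR-302b-3p: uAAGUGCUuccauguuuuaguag
miR-302a-3p: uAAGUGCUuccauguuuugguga
miR-302d-3p: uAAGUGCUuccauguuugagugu
miR-372-3p: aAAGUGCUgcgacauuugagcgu
miR-520a-3p: aAAGUGCUucccuuuggacugu
miR-17-5p: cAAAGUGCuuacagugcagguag
miR-20a-5p: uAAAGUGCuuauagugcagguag
miR-17-3p: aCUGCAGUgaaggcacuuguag
miR-20a-3p: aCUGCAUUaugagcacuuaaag
miR-18a-3p: aCUGCCCUaagugcuccuucugg
miR-15a-3p: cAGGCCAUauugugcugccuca
miR-16-2-3p: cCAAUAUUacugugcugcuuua
miR-339-3p: uGAGCGCCucgacgacagagccg
miR-769-5p: uGAGACCUcuggguucugagcu
miR-532-5p: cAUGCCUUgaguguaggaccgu
miR-671-5p: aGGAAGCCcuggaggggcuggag
miR-30e-5p: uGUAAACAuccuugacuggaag

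Levels are in RPM, that is, reads scaled by a denominator the authors set for each library. The denominators are not the miRNA totals, so RPM summed over all miRNAs differ between libraries. Hemizygous libraries held 1000101 and 1833057 miRNA reads, homozygous libraries 2289926 and 1814568, wild-type libraries 2680973 and 2725756, and Dicer-null libraries 165317 and 137655. Reads over denominator came to 0.729 and 2.42 in hemizygous libraries, lay between 2.09 and 2.43 in the homozygous and wild-type ones, and came to 0.118 and 0.183 in Dicer-null ones. Hemizygous replicate 1 therefore stood apart on this scale: the median miRNA was 1.94 log2 units higher in replicate 2 than in replicate 1, against differences between replicates of -0.23 in homozygous, 0.23 in wild-type and 0.79 in Dicer-null cells. Results are given for each hemizygous library where that gap matters. In bulk RNA, fewer cells that make a miRNA and less of it per cell cannot be told apart.

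**Figure D1:**
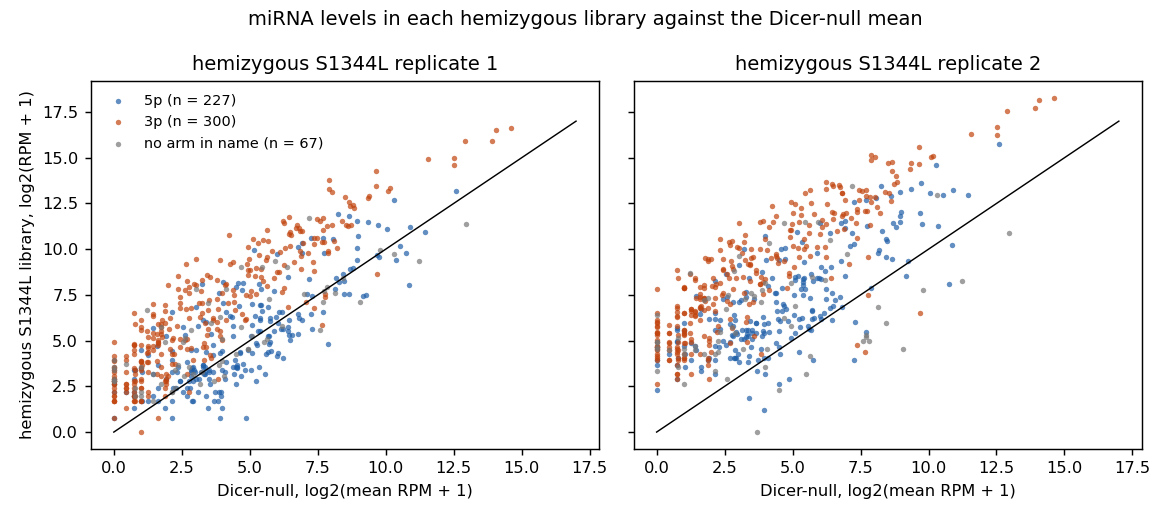
Level of each of 594 miRNAs in hemizygous replicate 1 (left) and replicate 2 (right) on the vertical axis, log2(RPM + 1), against log2 of the Dicer-null mean RPM + 1 on the horizontal axis. The line marks equal levels on the deposited scale; 287 of 300 3p strands (red) exceed both null libraries in replicate 1 and 296 in replicate 2, against 108 and 193 of 227 5p strands (blue).

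With a single S1344L allele nearly all 3p strands and a minority of 5p strands were called higher. The fold change was below 0 for 5 of 300 3p strands and 43 of 227 5p strands, so most 5p strands not called still lay above 0 on the deposited scale. In limma fits on log2(RPM + 1) with Benjamini-Hochberg adjustment over the table, 384 of 594 miRNAs were higher in hemizygous than in Dicer-null cells at an adjusted p under 0.05, or 64.6%, and 5, or 0.842%, were lower. By arm, 273 of 300 3p strands (91%) were higher and 0 lower (at an unadjusted p under 0.05, 281 and 1 by the same limma fit), against 80 of 227 5p strands (35.2%) higher and 2 lower. The median log2 fold change was 4.13 for 3p strands, 1.39 for 5p strands, and 3.09 over all miRNAs. Of the 67 miRNAs with no arm in their name, 31 were higher and 3 lower, with a median of 1.92.

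The levels depended on the scale, and 3p strands exceeded 5p strands at the median under each scale tried. With a library's total of miRNA reads as its scale (own reads below), the median over all miRNAs was 0.41, a shift of -2.68, and median-ratio scaling and quantile normalization gave medians of 0.39 and 0.19. On own reads 211 miRNAs were higher and 181 lower in hemizygous cells, and 5p strands turned round: 22 were higher and 139 lower, with a median of -1.68, whereas 174 3p strands were higher and 16 lower, with a median of 1.67. The median of 3p strands exceeded that of 5p strands by 2.74 log2 units on the deposited scale and by 3.35, 3.39 and 2.81 under the other 3 scalings. Each direction below is on the deposited scale and is read against the median of 3.09 over all miRNAs and the 91% of 3p and 35.2% of 5p strands called higher. Values on own reads are given for each list and for named miRNAs whose sign turned.

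**Figure D2:**
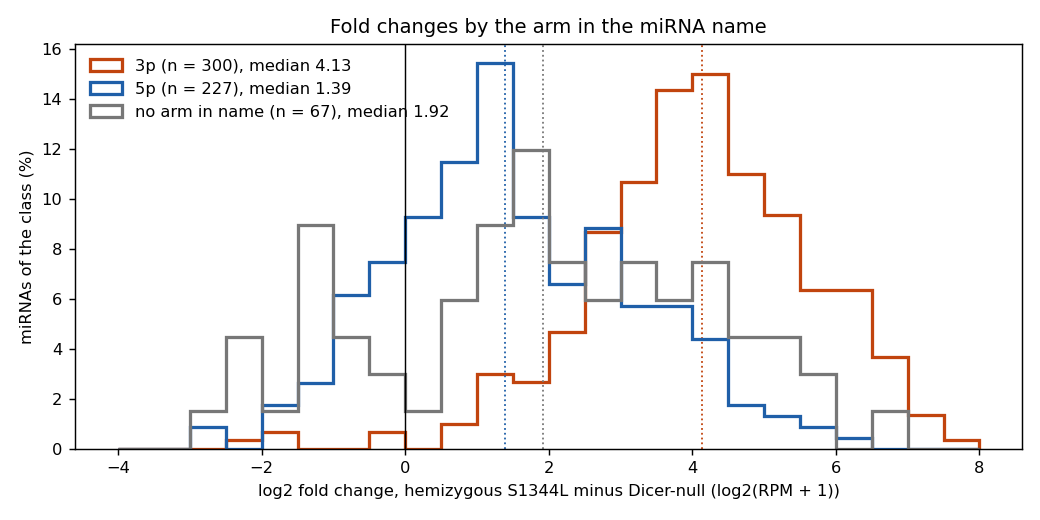
Distribution of log2 fold changes, hemizygous S1344L minus Dicer-null (horizontal axis), as the percentage of miRNAs in each arm class (vertical axis), with class medians as dotted lines. The 3p strands centre on 4.13 and the 5p strands on 1.39, both on the deposited scale; on own miRNA reads the medians are 1.67 and -1.68.

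Taken one library at a time, 287 of 300 3p strands lay above both Dicer-null libraries in hemizygous replicate 1 and 296 in replicate 2. Of the 227 5p strands, 108 lay above both Dicer-null libraries and 58 below both in replicate 1, against 193 above and 13 below in replicate 2. The 3p strands were thus high in both libraries, while the 5p count turned on which hemizygous library was read. Without hemizygous replicate 1, limma called 159 5p strands higher and without replicate 2 it called 64. Leaving out Dicer-null replicate 1 gave 47.

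Summed over strands, the 3p signal was 646161 and 2114186 RPM in hemizygous libraries, against 81466 and 115602 RPM in Dicer-null libraries, a 14-fold ratio of means. The summed 5p signal was 68741 and 269431 RPM in hemizygous libraries, against 27839 and 45390 RPM in Dicer-null libraries, a 4.62-fold ratio. Both hemizygous libraries exceeded both null libraries for both arms. As a share of arm-named RPM, which does not depend on the denominator, 5p strands made up 9.62% (95% Wilson interval 9.56 to 9.67) and 11.3% (11.3 to 11.3) in hemizygous libraries, against 25.5% (25.3 to 25.7) and 28.2% (27.9 to 28.4) in Dicer-null libraries. The intervals cover counting error only. The groups did not overlap: the share averaged 10.5 ± 1.19% in hemizygous and 26.8 ± 1.93% in Dicer-null cells (SD), and p was 0.333 in an exact permutation test (two-sided), the smallest that 2 libraries against 2 allow. Homozygous cells had 10.9 ± 0.371% and wild-type cells 33 ± 1.54%.

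Within a hairpin, the ratio of 3p to 5p compares strands paired by name in 1 library, and the library scale cancels apart from the pseudocount. A name with several loci, such as let-7a, can pool strands of more than 1 precursor. For 186 hairpins with both strands in the table, limma called a shift of this ratio toward 3p in hemizygous cells for 146 (78.5%) and toward 5p for 3 (1.61%). The median shift was 2.78 log2 units, or 6.85-fold. The 3p strand exceeded the 5p strand in 121 and 127 of the 186 hairpins in hemizygous libraries, 128 and 131 in homozygous libraries, 71 and 75 in wild-type libraries, and 67 and 68 in Dicer-null libraries. The hemizygous replicates, which differed in level, were close here, with median log2 ratios of 2.05 and 1.98, against -1.12 and -1.12 in Dicer-null libraries. Wild-type cells, which have both alleles intact, had medians of -1.42 and -1.33.

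The 3p strand alone was called higher in 108 of the 186 hairpins (58.1%), both strands in 66 (35.5%), the 5p strand alone in 1 (miR-628), and neither strand in 9. In the remaining 2 the 5p strand was lower, with the 3p strand higher in miR-365a and not called in miR-664a.

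**Figure D3:**
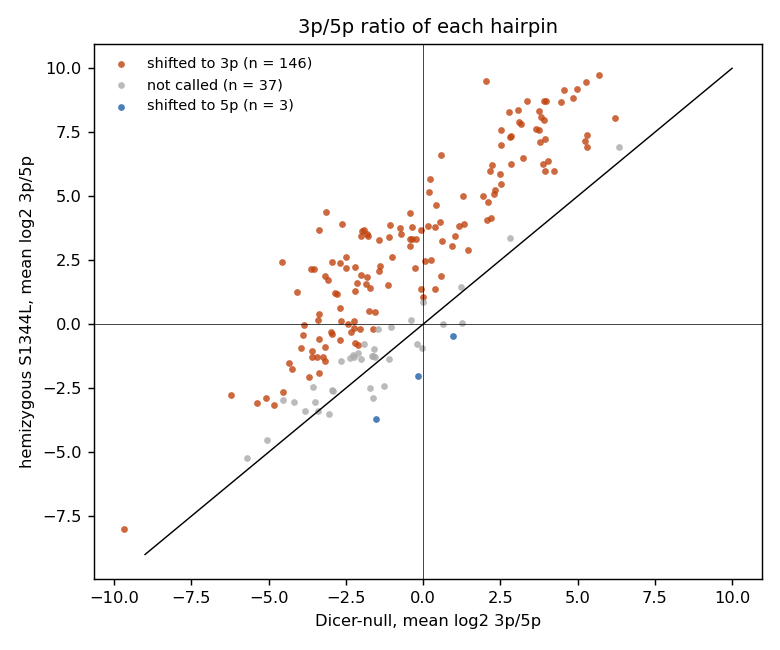
Mean log2 ratio of the 3p to the 5p strand of 186 hairpins in hemizygous S1344L (vertical axis) against Dicer-null cells (horizontal axis), with the line of equal ratios. The 146 hairpins called shifted to 3p (red) lie above the line, the 3 called shifted to 5p (blue) lie below it, and 37 (grey) were not called.

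The 5 largest shifts toward 3p were those of miR-339, miR-365a, miR-34c, miR-15a and miR-31. The log2 ratio of 3p to 5p for miR-339 was 3.83 and 4.94 in hemizygous libraries, against -3.11 and -3.15 in Dicer-null libraries, a shift of 7.52 ± 0.47 (SE; limma adjusted p = 1.03e-07). For miR-15a, a 5p guide that targets BCL2, it was 3.03 and 1.85 in hemizygous libraries, against -5.39 and -3.77 in Dicer-null libraries. In both hairpins the more abundant strand was the 3p one in each hemizygous library and the 5p one in each null library. The wild-type mean ratios were -1.70 for miR-339 and -5.86 for miR-15a.

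The 3 hairpins shifted toward 5p were miR-561 (by -2.19), miR-145 (by -1.88) and miR-452 (by -1.44), and both strands of each rose. For miR-561 the ratio was -3.80 and -3.63 in hemizygous libraries, against -1.95 and -1.10 in Dicer-null libraries. Their Dicer-null strands were read at low depth: miR-561-5p had 4 and 3 reads and miR-452-5p 3 and 1. On own miRNA reads none of the 3 was called by limma, with shifts of -0.65, -2.69 and -1.68 for miR-561, miR-145 and miR-452.

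The 3p guides of the miR-302 and miR-367 cluster, which maintain pluripotency and speed the cell cycle, were the 5 most abundant miRNAs of the hemizygous cells, and they marked the wild-type cells as pluripotent with summed levels of 794653 and 848224 RPM. All 5 were called higher, beside 91% of all 3p strands. Their median log2 fold change was 3.31, below the 4.13 of all 3p strands and near the 3.09 of all miRNAs. On own reads their median was 0.13 and 1 of 5 was called. miR-302b-3p had 101062 and 318189 RPM in hemizygous libraries, against 26279.6 and 23265 RPM in Dicer-null libraries, a log2 fold change of 2.86 ± 0.70 that turned to -0.32 on own reads. miR-302d-3p had 61423 and 193893 RPM in hemizygous libraries, against 5936 and 9334 RPM in Dicer-null libraries (3.87 ± 0.72, limma adjusted p = 5.65e-07). miR-367-3p, which has a different seed, had 61904 and 218472 RPM in hemizygous libraries, against 8108 and 22708 RPM in Dicer-null libraries (3.10 ± 0.71, and -0.08 on own reads). The groups did not overlap for any of these on the deposited scale, and hemizygous replicate 2 was the higher library each time.

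Of the 5p arms of the same hairpins 2 of 5 were called higher, near the 35.2% of all 5p strands, with a median of 0.76. On own reads 4 of 5 were called lower, with a median of -2.41. miR-302b-5p had 259 and 1207 RPM in hemizygous libraries, against 1444 and 2299.8 RPM in Dicer-null libraries (-1.70 ± 0.87, limma adjusted p = 0.0731). Both hemizygous libraries were below both null libraries, while its 3p partner was above in both. The log2 ratio of 3p to 5p in this hairpin, printed above, was 8.60 and 8.04 in hemizygous libraries, against 4.18 and 3.34 in Dicer-null libraries. The 2 called were miR-302a-5p and miR-302c-5p. miR-302a-5p had 9401 and 54165 RPM in hemizygous and 5158 and 7248 RPM in Dicer-null libraries (1.88 ± 0.76, limma adjusted p = 0.0208, and -1.29 on own reads). miR-302c-5p had 2529 and 12594 RPM in hemizygous and 615 and 1063 RPM in Dicer-null libraries (2.80 ± 0.82, and -0.37 on own reads). The call of miR-302a-5p was lost when any 1 of the libraries other than hemizygous replicate 1 was left out, and that of miR-302c-5p was lost without Dicer-null replicate 1 or in a fit of the hemizygous and null libraries alone.

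In the miR-371-373 cluster, another early embryonic cluster, 3 of 6 measured strands were higher, beside 64.6% of all miRNAs. All of them were 3p strands, beside 91% of all 3p strands called higher. miR-371a-3p had 7262 and 26985 RPM in hemizygous libraries, against 246 and 484 RPM in Dicer-null libraries (5.34 ± 0.82). miR-372-3p had 9291 and 34243 RPM in hemizygous libraries, against 467 and 1713 RPM in Dicer-null libraries (4.32 ± 0.80), and miR-373-3p had a log2 fold change of 4.53 ± 0.80. Its 5p strands were not called, although without hemizygous replicate 1 limma called 5 of the 6 strands higher. miR-371a-5p had 667 and 2919.9 RPM in hemizygous libraries, against 314 and 677 RPM in Dicer-null libraries (1.59 ± 0.86, and -1.58 on own reads), and the groups overlapped. On own reads the same split read as 3 higher and 3 lower.

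Grouped by seed, the 12 measured carriers of AAGUGCU, 11 of them named 3p, summed to 312574 and 994597 RPM in hemizygous libraries, against 54022 and 61013 RPM in Dicer-null libraries, an 11.4-fold ratio of means. The 8 carriers of the offset seed AAAGUGC, 6 of them 5p strands, summed to 8026 and 35518 RPM in hemizygous libraries, against 5228 and 7943 RPM in Dicer-null libraries, a 3.31-fold ratio. In wild-type cells the means were 706467 RPM for AAGUGCU and 172932 RPM for AAAGUGC. Hemizygous cells thus reached 653585 RPM on average for the first seed and 21772 RPM for the second. By the same ratio of means the sum over all miRNAs was 10.5-fold that of null, the 3p sum 14-fold and the 5p sum 4.62-fold. Seed sums were made on the deposited scale only.

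The miR-17-92 cluster and its paralogs, which drive proliferation, split by arm, as did all miRNAs (91% of 3p and 35.2% of 5p strands called higher). Of the 8 5p guides 0 were called higher by limma (0 also at an unadjusted p under 0.05), with a median of 1.32; without hemizygous replicate 1 all 8 were called higher, and on own reads all 8 were called lower, with a median of -1.85. miR-17-5p had 2332 and 9589.7 RPM in hemizygous libraries, against 1495 and 2329 RPM in Dicer-null libraries (1.34 ± 0.81, limma adjusted p = 0.133, and -1.83 on own reads) and 46792 and 53687 RPM in wild-type libraries. miR-20a-5p had 1939 and 7918 RPM in hemizygous libraries, against 2347 and 3277 RPM in Dicer-null libraries, so the groups overlapped (0.50 ± 0.81, and -2.68 on own reads). Its hemizygous replicate 1 was the lowest of these 4 libraries and replicate 2 the highest.

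All 8 3p passengers of the same hairpins were higher, with a median of 6.30, and 7 of 8 were called higher on own reads, with a median of 3.13. miR-18a-3p had 14112 and 36662 RPM in hemizygous libraries, against 99.3 and 377 RPM in Dicer-null libraries (6.87 ± 0.82, limma adjusted p = 5.22e-14) and 6104 and 5949.7 RPM in wild-type libraries. miR-20a-3p had 8991 and 33573 RPM in hemizygous libraries, against 155 and 367 RPM in Dicer-null libraries (6.18 ± 0.83) and 1702 and 2787 RPM in wild-type libraries. miR-17-3p and miR-93-3p had log2 fold changes of 6.41 ± 0.82 and 5.53 ± 0.88. For each of these 4 passengers both hemizygous libraries exceeded both wild-type libraries as well as both null ones.

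The 6 3p guides of the cluster and its paralogs all rose, with a median of 4.35; on own reads 5 of 6 were called higher, with a median of 1.18. miR-19b-3p had 31372 and 80458 RPM in hemizygous libraries, against 2261 and 3739.9 RPM in Dicer-null libraries (4.11 ± 0.75). miR-19a-3p (5.36 ± 0.78) and miR-25-3p (4.29 ± 0.81) rose as well. miR-92a-3p had 25199 and 78375 RPM in hemizygous libraries, against 4978 and 6701 RPM in Dicer-null libraries (2.94 ± 0.75), and its fold change turned to -0.23 on own reads. Across these hairpins, then, the 3p guides and 3p passengers were called higher, beside 91% of all 3p strands. The 5p guides were not called, beside 35.2% of all 5p strands called higher. The split by arm is thus that of the miRNAs at large and is not particular to this cluster.

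**Figure D4:**
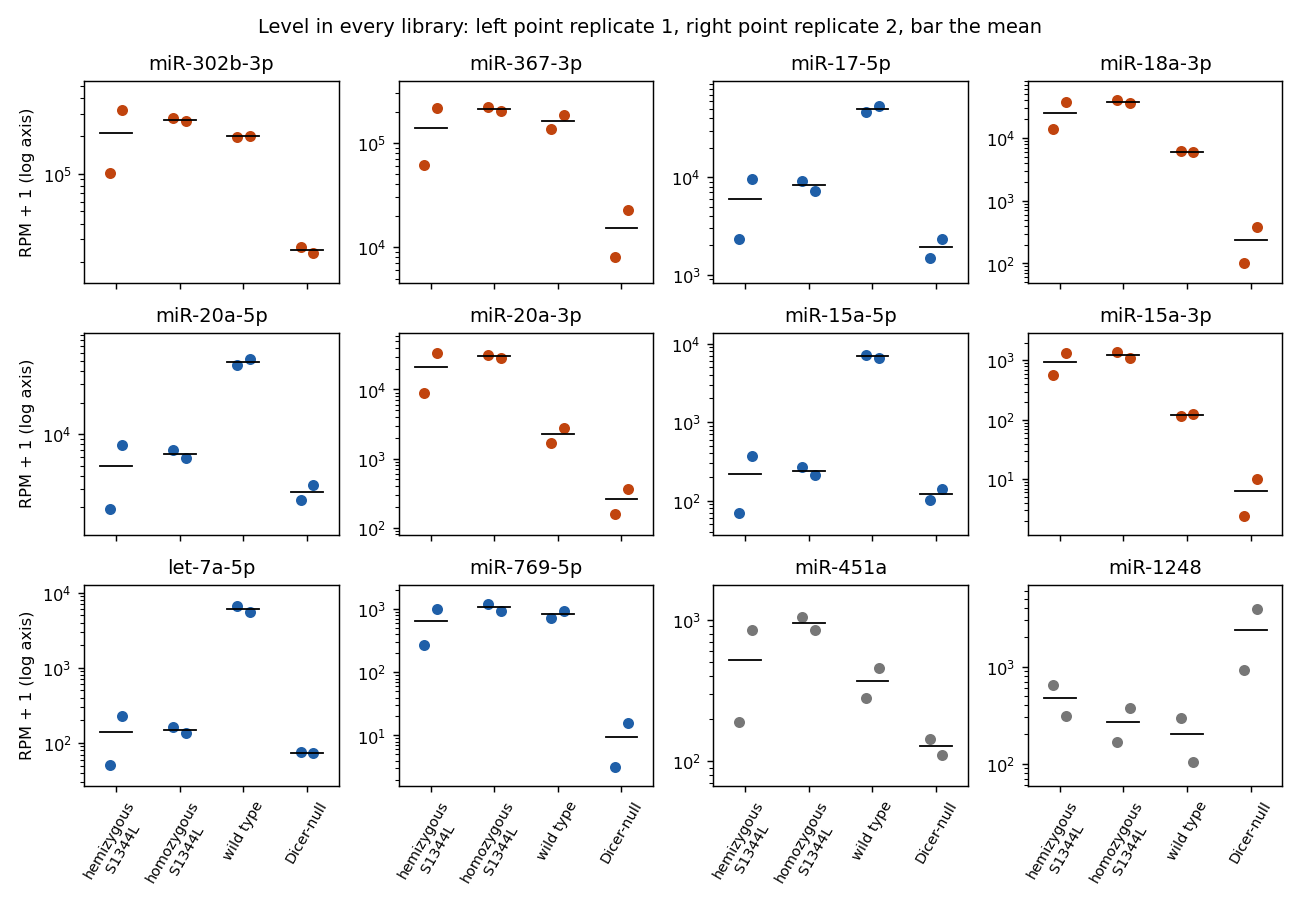
Level of 12 miRNAs in every library, as RPM + 1 on a log axis, with replicate 1 as the left point, replicate 2 as the right point and a bar at the mean, for hemizygous S1344L, homozygous S1344L, wild-type and Dicer-null cells. miR-18a-3p, miR-20a-3p and miR-15a-3p are far above null in both hemizygous libraries, whereas miR-17-5p, miR-20a-5p, miR-15a-5p and let-7a-5p stay near null in hemizygous replicate 1.

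The chromosome 19 cluster, a primate-specific array of hairpins active in stem cells and placenta, gave the largest sets. All 31 measured 3p strands were higher, beside 91% of all 3p strands, with a median of 4.31 (on own reads 23 higher, median 1.19). Of 29 5p strands 10 were higher, a share near the 35.2% of all 5p strands, with a median of 1.22 (on own reads 3 higher and 16 lower, median -1.60). The 5p count was 20 without hemizygous replicate 1, 5 without Dicer-null replicate 1, 5 with the hemizygous and null libraries alone and 4 with array weights. miR-519e-3p had 1724 and 5230.4 RPM in hemizygous libraries, against 12.9 and 22.6 RPM in Dicer-null libraries (7.38 ± 0.91). miR-520a-3p had 675 and 3024 RPM in hemizygous libraries, against 7.86 and 20 RPM in Dicer-null libraries (6.71 ± 0.94). Cluster members are near-identical in sequence, so reads may be divided among them in ways that the table does not record.

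Among the 5p strands of the cluster, miR-512-5p had 3554 and 7715 RPM in hemizygous libraries, against 329 and 463 RPM in Dicer-null libraries (3.74 ± 0.84). miR-515-5p had 342 and 1003 RPM in hemizygous libraries, against 224 and 354 RPM in Dicer-null libraries (1.06 ± 0.89, limma adjusted p = 0.29, and -2.11 on own reads), and 10242 and 9962 RPM in wild-type libraries. The groups did not overlap for miR-512-5p and did overlap for miR-515-5p. The 3p strands miR-512-3p (4.82 ± 0.83) and miR-520f-3p (4.82 ± 0.85) rose.

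The miR-15/16 family, 5p guides that restrain the cell cycle, showed both patterns. Of 7 5p guides 5 were higher, beside 35.2% of all 5p strands, with a median of 2.83. On own reads 2 were higher and 3 lower, with a median of -0.34. Without Dicer-null replicate 1, and likewise with the hemizygous and null libraries alone, 3 of the 7 were called higher. miR-15b-5p had 3001 and 9097 RPM in hemizygous libraries, against 491 and 492 RPM in Dicer-null libraries (3.41 ± 0.84). miR-15a-5p had 69.2 and 366 RPM in hemizygous libraries, against 101 and 139.7 RPM in Dicer-null libraries (0.42 ± 0.93) and 7211 and 6619.6 RPM in wild-type libraries. miR-16-5p had 2215 and 8461 RPM in hemizygous libraries, against 975 and 1146 RPM in Dicer-null libraries (2.03 ± 0.82, limma adjusted p = 0.0217, and -1.14 on own reads), a call that was lost when any homozygous, wild-type or null library was left out.

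All 6 3p passengers of the family rose, beside 91% of all 3p strands, with a median of 4.82 (5 of 6 called higher on own reads, median 1.85). miR-15a-3p had 572 and 1322 RPM in hemizygous libraries, against 1.43 and 9.32 RPM in Dicer-null libraries (7.44 ± 0.98), and 114 and 122 RPM in wild-type libraries. miR-16-2-3p had 1457 and 8720.0 RPM in hemizygous libraries, against 33.6 and 53.2 RPM in Dicer-null libraries (6.36 ± 0.90), and miR-15b-3p had a log2 fold change of 5.13 ± 0.91. The null level of miR-15a-3p rested on 2 and 7 reads.

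In the miR-30 family, which acts in differentiation, 3 of 5 5p guides rose, beside 35.2% of all 5p strands. Their median of 4.33 lay above the 3.09 of all miRNAs, unlike those of the other 5p lists. On own reads 3 were higher and 2 lower, with a median of 1.16. Without hemizygous replicate 1 all 5 were called higher. miR-30e-5p had 3917 and 11357 RPM in hemizygous libraries, against 241 and 369 RPM in Dicer-null libraries (4.48 ± 0.84), whereas miR-30c-5p had 399 and 1478 RPM in hemizygous libraries, against 319 and 363 RPM in Dicer-null libraries (1.17 ± 0.88, limma adjusted p = 0.235, and -2.00 on own reads). In wild-type cells the order was the reverse, with 9956 and 10917 RPM of miR-30e-5p and 13102 and 13486 RPM of miR-30c-5p. All 6 miR-30 3p arms rose, beside 91% of all 3p strands, with a median of 5.20. Among them were miR-30e-3p (5.59 ± 0.94) and miR-30d-3p (5.83 ± 1.01). On own reads 5 of 6 were called higher, with a median of 2.39.

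let-7a and the miR-99, miR-100 and miR-125 guides, 5p strands that mark differentiated cells, gave 2 rises of 5 measured, near the 35.2% of all 5p strands, with a median of 0.53 and, on own reads, 3 lower with a median of -2.62. The count was 4 of 5 without hemizygous replicate 1, and 1 of 5 without hemizygous replicate 2, without Dicer-null replicate 1 or with the hemizygous and null libraries alone. let-7a-5p had 49.6 and 229 RPM in hemizygous libraries, against 75 and 71.9 RPM in Dicer-null libraries (0.53 ± 0.95, and -2.62 on own reads) and 6638 and 5486 RPM in wild-type libraries. Hemizygous replicate 1 lay below both null libraries and replicate 2 above both. miR-125a-5p had 888 and 2276 RPM in hemizygous libraries, against 75 and 168 RPM in Dicer-null libraries (3.65 ± 0.89), and its 3p partner miR-125a-3p had 91.8 and 469 RPM in hemizygous libraries, against 0 and 1.33 RPM in Dicer-null libraries (7.10 ± 1.02).

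The 10 largest rises were miR-339-3p, miR-15a-3p, miR-519e-3p, miR-125a-3p, miR-219a-2-3p, miR-532-3p, miR-9-3p, miR-18a-3p, miR-1264 and miR-520a-3p, with log2 fold changes between 6.71 and 7.59. All but miR-1264, whose name gives no arm, are 3p strands. miR-339-3p led with 716 and 2748 RPM in hemizygous libraries, against 3.57 and 10.6 RPM in Dicer-null libraries (7.59 ± 0.95, limma adjusted p = 3.92e-13). Of these 10, all but miR-18a-3p had fewer than 20 reads in either null library, so the fold sizes rest on few null reads. A further 33 miRNAs had 0 reads in both null libraries, 24 of them 3p, 3 5p and 6 with no arm, and limma called 24, 2 and 6 of these higher. They were picked by their null reads, so these calls were nearly fixed in advance and add no support. Against a floor of 3 reads per null library, 3.07 RPM on average, miR-651-3p was at least 41.4-fold higher in hemizygous cells and miR-598-3p at least 17-fold. For miR-2277-3p, also called, the bound was 1.22-fold. All of these were chosen after their values were seen.

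The 5p strands that rose are given by abundance and by size of the rise. By abundance in hemizygous cells the leading 5p strands were miR-302a-5p, miR-135a-5p, miR-30e-5p, miR-302c-5p and miR-33a-5p. miR-135a-5p had 6728 and 24742 RPM in hemizygous libraries, against 1122 and 1378 RPM in Dicer-null libraries (3.37 ± 0.80), and miR-33a-5p, which lies in SREBF2 and represses cholesterol export, had 2898 and 10166 RPM in hemizygous and 410.2 and 882 RPM in Dicer-null libraries (3.17 ± 0.83). These 2 rises were not called on own reads, where they came to 0.20 and -0.00, and both turned negative under quantile normalization (-0.14 and -0.09). The largest 5p rises, listed after their values were seen, were miR-769-5p (6.24 ± 0.96), miR-532-5p (5.52 ± 0.95), miR-671-5p (5.51 ± 0.92), miR-561-5p (5.28 ± 1.01), miR-452-5p (5.13 ± 1.02) and miR-3613-5p (5.02 ± 0.99). miR-769-5p had 272 and 1027 RPM in hemizygous libraries, against 2.14 and 14.6 RPM in Dicer-null libraries and 726 and 932 RPM in wild-type libraries. miR-671-5p had 1003 and 1991 RPM in hemizygous libraries, against 17.1 and 51.9 RPM in Dicer-null libraries and 1879.8 and 1388 RPM in wild-type libraries. In hemizygous replicate 2 both exceeded the higher wild-type library, and in replicate 1 both lay below the lower one.

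Of the strands with at least 500 RPM in wild-type cells, 109 were 5p and 109 were 3p, and both arms started from alike low null levels: the median strand stood at 1.95% and 3.21% of wild type for 5p and at 1.83% and 3.44% for 3p in the Dicer-null libraries. Hemizygous cells covered a median of 75.4% of the distance from null to wild type for the 3p strands (29.4% in replicate 1 and 116% in replicate 2) and of 5.94% for the 5p strands (0.517% in replicate 1 and 12.7% in replicate 2). At least 50% was covered by 75 of 109 3p strands and 14 of 109 5p strands, and under 10% by 7 and 64. More than 100% was covered by 39 of the 3p strands and 3 of the 5p strands. In all, 107 of these 3p strands and 40 of these 5p strands were called higher than null, beside 91% of all 3p and 35.2% of all 5p strands. In homozygous cells 108 and 69 of the same strands were called higher, and the median distance covered was 113% for 3p and 9.46% for 5p strands. The values are descriptions on the deposited scale, since the wild-type libraries chose the strands and set the distance.

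Simple features of the hairpins were set beside the calls of the 5p strand. Both strands had a RefSeq sequence in 136 of the 186 hairpins, of which 51 had a 5p strand called higher and 85 did not. The median 5p length was 22 bases, the median 3p length 22 bases and the median number of bases between the arms 16 in both sets. Across hairpins, which share libraries and are not independent, Spearman's rho of the 3p shift was -0.13 with the bases between the arms, 0.07 with the 5p length and 0.15 with the 3p length. By the first base of the 3p strand, the 5p strand was called higher in 19 of 37 hairpins with C (51.4%), 11 of 42 with A (26.2%), 6 of 20 with G (30%) and 15 of 37 with U (40.5%), and the median shift was 1.84 with C and 3.14, 3.45 and 3.41 with A, G and U. By the first base of the 5p strand, the 5p strand was called higher in 6 of 10 hairpins with G (60%) and 10 of 36 with C (27.8%). With A it was called higher in 11 of 32 (34.4%) and with U in 24 of 58 (41.4%). The median shifts were 0.82 with G, 3.42 with C, 2.84 with A and 2.62 with U. These shares stand beside 51 of 136 for all hairpins. No test was made of these features.

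Lists of miRNAs linked to particular cell types or lineages were read in the same way, as descriptions. The miR-200 family of 3p guides, which keep cells epithelial, rose in 5 of 5, beside 91% of all 3p strands, with a median of 5.01 (4 of 5 on own reads). The family was also present in wild-type cells, where it summed to 20763 and 26481 RPM, against 6678 and 31826 RPM in hemizygous libraries. miR-200c-3p had 2953 and 13266 RPM in hemizygous libraries, against 44.3 and 102 RPM in Dicer-null libraries (6.51 ± 0.85), and miR-141-3p had a log2 fold change of 4.62 ± 0.85. Of 6 neural miRNAs, a mix of both arms, 5 rose, beside 64.6% of all miRNAs and 91% of 3p strands, with a median of 4.59, among them miR-124-3p with 11064 and 25849 RPM in hemizygous and 642 and 957 RPM in Dicer-null libraries (4.43 ± 0.80) and miR-128-3p (4.66 ± 0.91); on own reads 5 were higher and 1 lower. Wild-type cells had 14848 and 13011 RPM of miR-124-3p. Of 6 mesoderm and endoderm miRNAs 5 rose, beside the same shares, with a median of 5.30, among them the endothelial miR-126-3p (5.97 ± 0.89) and the blood-cell miR-142-3p (6.69 ± 0.96); on own reads 4 were higher and 1 lower.

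Fibroblast-enriched miRNAs rose in 9 of 12, beside 64.6% of all miRNAs, with a median of 3.67, and on own reads 4 were higher and 4 lower. miR-221-3p had 2533 and 12020.5 RPM in hemizygous libraries, against 237 and 612 RPM in Dicer-null libraries (3.85 ± 0.83, and 0.68 on own reads), and miR-21-5p had 1149 and 7963 RPM in hemizygous libraries, against 1092 and 1834 RPM in Dicer-null libraries (1.10 ± 0.82, limma adjusted p = 0.235, and -2.08 on own reads). The list summed to 10797 and 43464 RPM in hemizygous libraries, 46986 and 39296 RPM in homozygous libraries, 61852 and 74283 RPM in wild-type libraries, and 2675 and 4415 RPM in Dicer-null libraries. Of 6 p53-linked miRNAs 4 rose, a share near the 64.6% of all miRNAs, with a median of 3.04, including miR-107 (3.30 ± 0.99). On own reads 1 was higher and 2 lower, and without Dicer-null replicate 1, or with the hemizygous and null libraries alone, 2 of the 6 were called higher. miR-34a-5p, a p53 target that stops the cell cycle, had 31.3 and 116 RPM in hemizygous libraries, against 57.2 and 118 RPM in Dicer-null libraries (-0.44 ± 0.97), and 3329 and 3527 RPM in wild-type libraries.

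**Figure D5:**
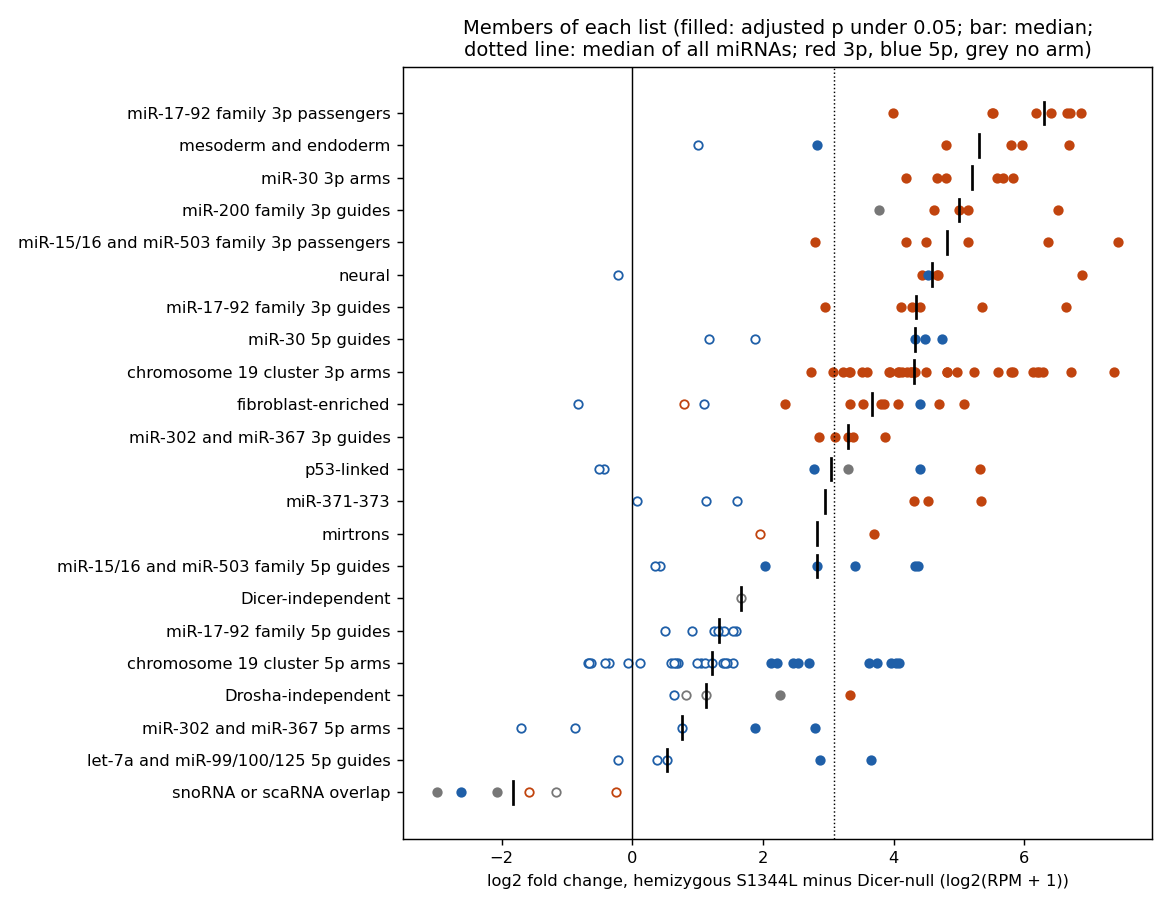
Log2 fold change, hemizygous S1344L minus Dicer-null (horizontal axis), of each measured member of 22 lists, 1 list per line, with filled points for an adjusted p under 0.05, a bar at each list's median and a dotted line at 3.09, the median of all miRNAs. The medians of lists named for 3p strands lie right of that line, though single members such as miR-302b-3p (2.86) lie left of it, and the medians of the 5p lists of miR-17-92, miR-302 with miR-367 and let-7a lie left of it, on the deposited scale; on own reads those 5p medians fall below 0.

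miRNAs that bypass Dicer or Drosha were looked at separately. miR-451a, which Argonaute 2 matures without Dicer, had 189 and 851 RPM in hemizygous libraries, against 144 and 110.5 RPM in Dicer-null libraries (1.66 ± 0.94, limma adjusted p = 0.108), and 280.3 and 457 RPM in wild-type libraries; on own reads its fold change was -1.50. Without hemizygous replicate 1 it was called higher by limma (2.75), and without replicate 2 its fold change was 0.58. Of the mirtrons, whose hairpins are made by splicing, 1 of the 2 measured 3p strands rose, beside 91% of all 3p strands. miR-1237-3p had 5.83 and 23.8 RPM in hemizygous libraries and 0 reads in both null libraries (at least 4.83-fold). miR-1227-3p, not called, had 2.91 and 7.93 RPM in hemizygous libraries, against 0 and 1.33 RPM in Dicer-null libraries (1.95 ± 0.96, and -0.63 under quantile normalization). Without hemizygous replicate 1 both were called. Of 5 Drosha-independent miRNAs 2 rose, beside 64.6% of all miRNAs. They included miR-320a-3p, with 482 and 2185 RPM in hemizygous and 57.2 and 178 RPM in Dicer-null libraries (3.33 ± 0.89). miR-484 had 36.4 and 116 RPM in hemizygous libraries, against 17.9 and 47.9 RPM in Dicer-null libraries (1.13 ± 0.98, and -2.00 on own reads), and 2800.2 and 2800.3 RPM in wild-type libraries. On own reads 3 of the 5 Drosha-independent miRNAs were lower. The list had 3 calls without hemizygous replicate 1, and 1 without hemizygous replicate 2, Dicer-null replicate 2 or any 1 homozygous or wild-type library. Without Dicer-null replicate 1 limma called no member, miR-320a-3p included, and 1 had an unadjusted p under 0.05.

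The miRNAs that fell were few and included small RNAs annotated within snoRNA or scaRNA genes, whose host RNAs guide the modification of other RNAs. In that list 3 of 6 measured were lower by limma, beside 0.842% of all miRNAs, with a median of -1.83. On own reads all 6 were lower, a scale on which 181 miRNAs of the whole table were called lower. Without hemizygous replicate 1 the list had 5 lower, and without hemizygous replicate 2 it had 1. miR-1291 had 137 and 22.5 RPM in hemizygous libraries, against 247 and 824 RPM in Dicer-null libraries (-2.99 ± 1.01, limma adjusted p = 0.00571). miR-1248 had 651 and 305 RPM in hemizygous libraries, against 917 and 3886 RPM in Dicer-null libraries (-2.08 ± 0.93, limma adjusted p = 0.0401). Here hemizygous replicate 1 was the higher of its pair and Dicer-null replicate 2 the higher of its own. Both calls were lost without hemizygous replicate 2 or without Dicer-null replicate 2, and that of miR-1248 also without any homozygous or wild-type library. The list summed to 1119 and 541 RPM in hemizygous libraries, against 1568 and 5187 RPM in Dicer-null libraries; without Dicer-null replicate 2, limma called 0 of 594 miRNAs lower (0 also at an unadjusted p under 0.05).

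The other 3 called lower, named after their values were seen, were at 50 RPM or less in every library of both groups. miR-664a-5p, from the same snoRNA list, had 1.46 and 1.32 RPM in hemizygous libraries, against 9.29 and 20 RPM in Dicer-null libraries (-2.62 ± 0.91). miR-365a-5p had 0.729 and 6.61 RPM in hemizygous libraries, against 9.29 and 46.6 RPM in Dicer-null libraries (-2.61 ± 0.96), and miR-3143 had 5.83 and 0 RPM in hemizygous libraries, against 9.29 and 14.6 RPM in Dicer-null libraries (-2.28 ± 0.89). miR-664a-3p, the partner strand, had 189 and 177 RPM in hemizygous libraries, against 216 and 218 RPM in Dicer-null libraries, and was not called (-0.24 ± 0.97).

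Homozygous cells carry a pair of S1344L alleles and no wild-type one. Homozygous against Dicer-null cells, a comparison that shares the null libraries, had 453 miRNAs higher (76.3%) and 12 lower (2.02%), with 289 of 300 3p strands and 121 of 227 5p strands higher and medians of 5.05 and 2.20. For the hairpins the median shift toward 3p was 3.08 log2 units in homozygous cells, beside 2.78 in hemizygous cells. Set directly against homozygous cells, hemizygous cells had 0 miRNAs higher (0%) and 0 lower (0%) by limma, with 0 and 7 at an unadjusted p under 0.05 and a median of -0.86. That result turned on hemizygous replicate 1: with it as the lone hemizygous library 4 miRNAs were called higher and 412 lower, and with replicate 2 as the lone library 0 and 0. Hemizygous replicate 2 held 269431 RPM of 5p and 2114186 RPM of 3p strands, and homozygous libraries held 266304 and 228347 RPM of 5p and 2119982 and 1918717 RPM of 3p strands.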

How the data were processed

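Small RNA libraries of 8 samples (2 hemizygous S1344L, 2 homozygous S1344L, 2 wild type, 2 Dicer-null) were made, per the labels' protocols, from biologically independent RNA with spike-ins, linker ligation, gel selection and PCR. For miRNAs, the limma p-values rest on a spread between such samples that is pooled over the 4 groups and over strands of like level. They do not measure the spread of the hemizygous or the null pair alone. In a fit of only the hemizygous and null libraries 285 miRNAs were called higher, against 384 in the main fit. The submitters' processing notes name cutadapt and limma, with no versions, and the build hg38. How the authors counted, annotated, filtered and scaled is not given in the sources used here.

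Values are deposited as log2 of RPM, with 0.5 of a read added, read from the values; whole reads came back to within 7.31e-09. The tests had been planned for linear RPM, so the log2 values were turned back. A read equals between 0.715 and 1.33 RPM, and a count of 0 allows 3 reads. Reads without molecular identifiers are not independent molecules.

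limma 3.58.1 (R 4.3.3) was fitted on log2(RPM + 1), with group means over 8 libraries, a variance trend, two-sided tests and Benjamini-Hochberg adjustment over the 594 miRNAs (all passed 5 RPM in 2 libraries) or the 186 hairpins, at 0.05. The prior degrees of freedom were infinite for miRNAs, so strands of like level share a spread. Errors are SE for fold changes and SD otherwise. Scripts were tested on simulated data. Summaries used Python 3.11.15, pandas 2.3.3 and scipy 1.17.1.

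Named miRNAs are the 10 largest rises and falls past the threshold whose groups do not overlap and whose mean reaches 50 RPM in either group, the 5 most abundant strands overall and the 5 most abundant 5p strands of hemizygous cells, up to 4 members of each list, miR-451a, and the 5 largest hairpin shifts each way. The comparison, members and lists were chosen with earlier results of these data known. Arms were paired by name, and a name with several loci, such as let-7a, counts once. Alternatives varied the pseudocount, filter, scaling, libraries in the fit and variance model, added a replicate block, and dropped libraries in turn. The spike-ins were not analysed here.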

Additional observations from a re-analysis of the deposited data

How the results depend on the processing

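The shift of hairpins toward 3p (146 of 186) kept its direction and stayed within 1.5 times under every alternative that was run, between 134 and 144 when 1 library was left out. Counts of levels did not. With own miRNA reads, median-ratio factors and quantile normalization, the miRNAs higher in hemizygous cells numbered 211, 214 and 211 (384 on the deposited scale). Those lower numbered 181, 180 and 182 (5). The 5p strands higher numbered 22, 24 and 23 (80), and the 3p strands higher 174, 175 and 173 (273). These scalings are set from the miRNA values themselves, and the cause of the move was not tested. Hairpins shifted to 5p (3) were 0 and 0 with the first 2 of these and 5 with a pseudocount of 5 RPM. miRNAs lower were 2 with a filter of 50 RPM, which tests fewer miRNAs, and 0 in a fit of only the 4 hemizygous and null libraries or with array weights (1 and 0 at an unadjusted p under 0.05 in limma), where 5p strands higher were 40 and 42; the cause was not tested. Without 1 library each in turn, miRNAs higher lay between 304 (without Dicer-null replicate 1) and 500 (without hemizygous replicate 1), miRNAs lower between 0 and 17, 5p strands higher between 47 and 159, 3p strands higher between 234 and 294, hairpins shifted to 5p between 2 and 4, and hemizygous against homozygous calls between 0 and 4 higher and 0 and 412 lower. The 5p share difference of -16.4 points lay between -17.7 and -15 without 1 library, and was -36.6 without the 5 most abundant wild-type miRNAs and -26.1 as a mean over hairpins.

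The sample titles number the replicates and do not say whether the same number in different groups marks a shared batch. Deviations of same-numbered hemizygous and null libraries correlated at -0.105, and those of hemizygous and wild-type libraries at 0.612. For replicates 1 and 2 the denominators were 1372334 and 756540 in hemizygous and 1399486 and 751354 in Dicer-null libraries. They were 944105 and 831816 in homozygous and 1284190 and 1168795 in wild-type libraries. A shared batch was not tested. With a replicate block 391 miRNAs were higher and 7 lower, and 4 hairpins shifted to 5p. A crossed block, added after seeing the data, gave 371 higher, 4 lower and 5 hairpins shifted to 5p.

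Some named miRNAs changed sign. On own miRNA reads the log2 fold changes were miR-302b-3p -0.32, miR-367-3p -0.08, miR-302a-5p -1.29, miR-302c-5p -0.37, miR-33a-5p -0.00, miR-367-5p -2.41, miR-371a-5p -1.58, miR-17-5p -1.83, miR-20a-5p -2.68, miR-18a-5p -1.92, miR-106b-5p -1.77, miR-92a-3p -0.23, let-7a-5p -2.62, miR-16-5p -1.14, miR-30c-5p -2.00, miR-21-5p -2.08, miR-451a -1.50, miR-484 -2.00 and miR-515-5p -2.11. Under median-ratio scaling they were miR-302b-3p -0.34, miR-367-3p -0.10, miR-302a-5p -1.32, miR-302c-5p -0.40, miR-33a-5p -0.03, miR-367-5p -2.44, miR-371a-5p -1.60, miR-17-5p -1.86, miR-20a-5p -2.70, miR-18a-5p -1.95, miR-106b-5p -1.79, miR-92a-3p -0.26, let-7a-5p -2.65, miR-16-5p -1.17, miR-30c-5p -2.03, miR-21-5p -2.10, miR-451a -1.53, miR-484 -2.03 and miR-515-5p -2.14. Under quantile normalization they were miR-367-3p -0.15, miR-302a-5p -1.18, miR-135a-5p -0.14, miR-302c-5p -0.33, miR-33a-5p -0.09, miR-367-5p -2.18, miR-371a-5p -1.55, miR-17-5p -1.87, miR-20a-5p -2.53, miR-18a-5p -1.75, miR-106b-5p -1.75, miR-92a-3p -0.04, let-7a-5p -2.80, miR-16-5p -1.25, miR-30c-5p -1.96, miR-21-5p -2.20, miR-451a -1.57, miR-1227-3p -0.63, miR-484 -1.69 and miR-515-5p -2.10. With 1 library left out, the fold change lay between -0.14 and 1.67 for miR-367-5p, -0.52 and 1.51 for miR-20a-5p, -0.56 and 1.63 for let-7a-5p, -0.30 and 2.49 for miR-21-5p, and -1.37 and 0.49 for miR-34a-5p. Null libraries limit the depth: 64 and 56 of the 594 miRNAs had 0 reads there.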
